A study of Mus musculus with 6 samples.

Results

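Bile acid synthesis and hepatobiliary transport was followed through 38 mouse genes in RNA from whole livers. The genes were taken by symbol from a list that was drawn up with earlier results of these data known, and all 38 had a row among the 24346 genes of the deposited table: 11 of synthesis, 3 of conjugation, 6 of sinusoidal uptake, 12 of export and 6 regulators. The livers came from 6 male C57/BL6 mice, 8 weeks old, each given 1 intraperitoneal dose of 0.6 μl CCl4 per g body weight in sunflower oil and taken 24 hours later. CCl4, carbon tetrachloride, is a toxin that hepatocytes turn into a reactive radical, mostly around the central vein. The control group was 3 med23f/f mice, which carry part of *Med23* flanked by loxP sites, and the other group was 3 mice labelled med23Δli, in which *Albumin*-cre is meant to delete that part of *Med23* in hepatocytes while liver cells of other kinds retain it. Both groups received CCl4, and neither an untreated nor an oil-treated group was part of the comparison. The values therefore give the difference between the labelled groups after CCl4 and no effect of CCl4 itself. For mice of this acute model the paper reports substantial necrosis in control livers and hardly any in med23Δli livers, with fewer apoptotic cells. Genotype and degree of injury therefore cannot be told apart here. Nothing in the labels says more of litters or days than that each library was 1 liver.

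Hepatocytes make bile acids from cholesterol by a classic route that starts with *Cyp7a1* and an alternative route through *Cyp27a1* and *Cyp7b1*, join them to taurine or glycine, and pump them into the bile canaliculus. Bile acids that return from the gut in portal blood are taken up again at the sinusoidal membrane, and exporters of the same membrane can send them back to blood. The nuclear receptor FXR, encoded by *Nr1h4*, senses bile acids, and intestinal FGF15 acting on *Fgfr4* and its coreceptor *Klb* holds synthesis down.

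Levels are given in FPKM, fragments scaled to transcript length and library size, and log2 fold changes are differences of log2(FPKM + 0.1), livers labelled med23Δli minus controls. limma was fitted over the 11956 genes whose mean over the 6 livers reached 0.5 FPKM, and a gene is said to have risen or fallen at an adjusted p under 0.05. FPKM keeps no read counts, so the number of reads behind a value is unknown and the spread between the 3 livers of a group is the error used throughout.

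*Med23* itself did not tell the groups apart. Its level was 3.42, 2.97 and 4.14 FPKM in the controls, against 3.40, 3.40 and 2.91 FPKM in the livers labelled med23Δli (log2 fold change -0.11, SE 0.17, limma adjusted p = 0.685), and without control replicate 3 the difference turned to 0.02. These values cover all exons and all liver cells, and the group names below are therefore those of the labels. Summed FPKM ran from 591848 to 651193 per library, no 2 libraries were identical, and Pearson's r between libraries over the tested genes lay between 0.922 and 0.982. Among marker genes, hepatocyte markers summed to 36174 to 47954 FPKM in the controls and 32293 to 39870 FPKM in the other group, with 1 of 10 lower. Cholangiocyte markers had 0 of 7 tested genes called, macrophage markers 0 of 8, neutrophil markers 0 of 4 and dividing cell markers 0 of 2. Of 7 stellate markers 1 was lower, with sums of 83.7 to 105 and 65.8 to 87.2 FPKM, and all 6 endothelial markers were lower. No marker was listed at 0 in every library. Adipocyte markers summed to 36.9 FPKM in med23Δli replicate 2 and to between 0.243 and 0.714 FPKM in the other 5 livers. Their part in the results was not tested, and where a call of a named bile acid gene is lost without that liver, the adjusted p without it is given.

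The transporters held 7 of the 10 members that rose, 3 of 6 tested in uptake and 4 of 10 tested in export, and none that fell. Of the 10 tested genes of synthesis 3 rose and 1, *Cyp7b1*, fell. Of the 34 members tested, 10 rose and 2 fell, against 11.6% of all tested genes that rose and 9.48% that fell, so that 35.3% of the members were called against 21.1% of all genes. As the list was not chosen blind to these data, the comparison is a description. More than 2-fold, 7 members rose and 1 fell, where 4.45% and 3.45% of all genes did. In 18 tested members the 2 groups did not overlap, which was so for 43.7% of all tested genes, with 15 of the members higher and 3 lower in the livers labelled med23Δli. The median log2 fold change of the tested members was 0.36, beside 0.02 for all tested genes. By class it was 0.40 for synthesis, 0.36 for conjugation, 0.64 for sinusoidal uptake, 0.60 for export and 0.12 for regulators. Without control replicate 3 the median turned to -0.035 for conjugation and to -0.0065 for regulators, whereas those of the other classes stayed above 0 with any 1 liver left out. The number of members that rose was 6 without med23Δli replicate 1 and likewise 6 without med23Δli replicate 2, and under quantile normalization 8 rose and 3 fell. The levels are of whole liver, where fewer cells of a type and less RNA per cell cannot be told apart.

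**Figure D1:**
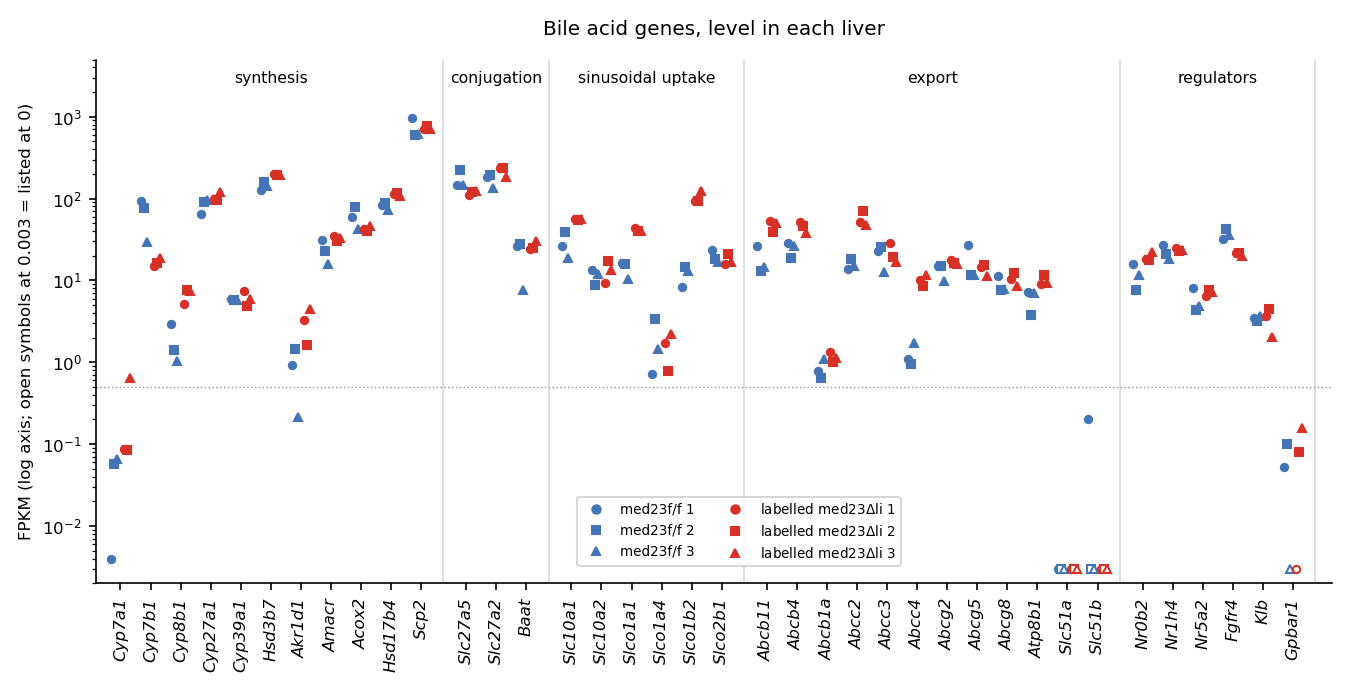
FPKM of the 38 genes (log axis) in each of the 6 livers, grouped by role, with blue symbols for med23f/f and red symbols for livers labelled med23Δli; open symbols are genes listed at 0 and the dotted line is the 0.5 FPKM limit on the mean. The red symbols of *Slco1b2*, 93.6 to 123 FPKM, lie far above the blue ones, 8.33 to 14.4 FPKM, whereas *Cyp7b1* shows the opposite order.

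**Figure D2:**
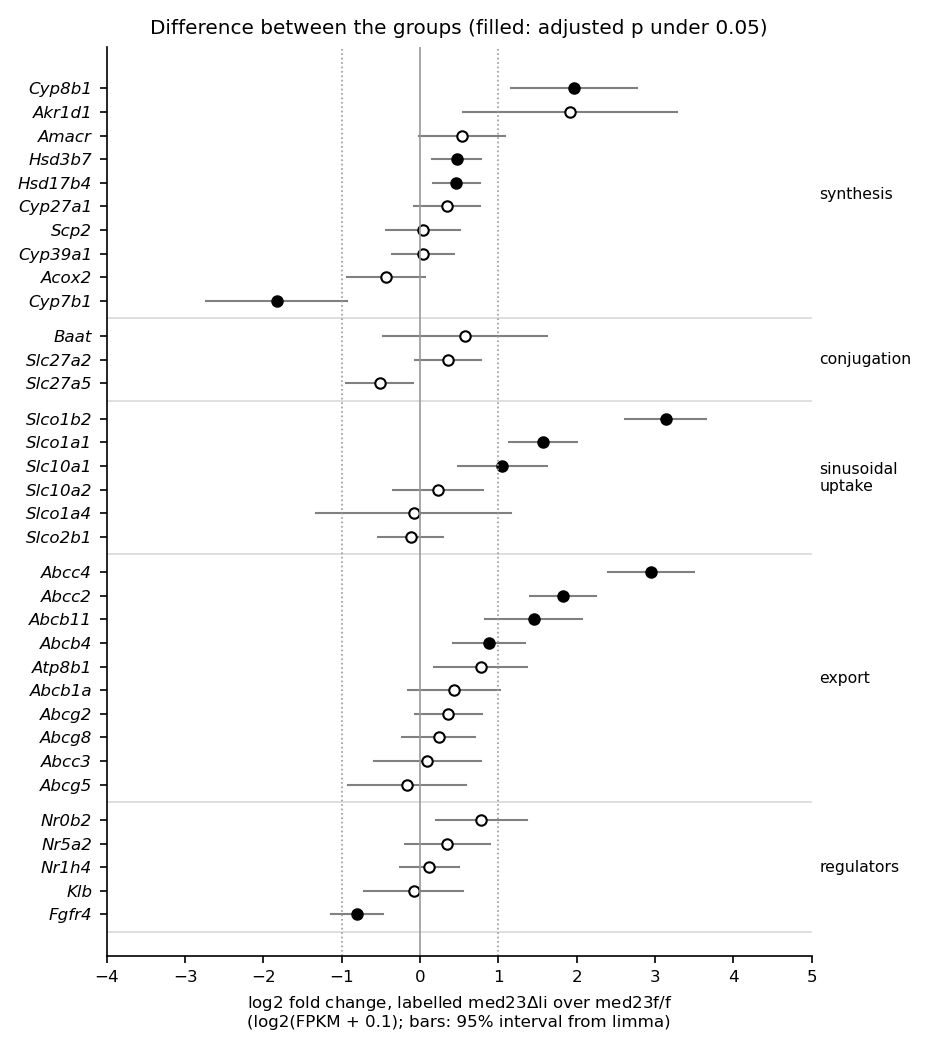
log2 fold change of the 34 tested genes, livers labelled med23Δli over med23f/f, with the 95% interval from limma for each; filled points have an adjusted p under 0.05 and dotted lines mark 2-fold. Filled points to the right number 10, led by *Slco1b2* at 3.14 and *Abcc4* at 2.94, and filled points to the left are *Cyp7b1* at -1.83 and *Fgfr4* at -0.80.

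Synthesis was examined from its first step. *Cyp7a1*, the rate-limiting enzyme of the classic route, was close to absent in both groups: 0.00398, 0.0570 and 0.0665 FPKM in the controls and 0.0881, 0.0853 and 0.647 FPKM in the livers labelled med23Δli. The groups did not overlap, but the gene fell under the limit on low values and was not tested in the fit, and most of the difference in means came from med23Δli replicate 3. By exact permutation (two-sided) p was 0.1, the smallest that 3 against 3 livers allow, and no call is made.

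*Cyp7b1*, the oxysterol hydroxylase of the alternative route (mm10 chromosome 3, 18071950 to 18243338, minus strand), fell. Its level was 93.5, 77.2 and 29.1 FPKM in the controls and 15.2, 16.3 and 18.7 FPKM in the livers labelled med23Δli. The latter lay close together and under every control, of which replicate 3 was the lowest. The mean was 66.6 ± 33.5 FPKM (SD, n = 3) against 16.7 ± 1.77 FPKM, which leaves 25.1% of the control level (log2 fold change -1.83, SE 0.39, limma adjusted p = 0.0176). The adjusted p was 0.0643, 0.0578 and 0.0565 when med23Δli replicate 1, 2 or 3 was left out, so the call needs all 3 of these livers, whereas the log2 fold change stayed between -2.34 and -1.50 with any 1 of the 6 livers left out.

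*Cyp8b1*, the sterol hydroxylase that is needed for cholic acid (chromosome 9, 121914356 to 121916305, minus strand), rose from a low level. It stood at 2.94, 1.41 and 1.04 FPKM in the controls and 5.19, 7.70 and 7.47 FPKM in the livers labelled med23Δli. Every liver of the second group was above every control. The means were 1.80 ± 1.01 and 6.79 ± 1.39 FPKM (SD, n = 3 each), and the log2 fold change was 1.97 (SE 0.35, limma adjusted p = 0.0101). The adjusted p was at most 0.0462 with any 1 liver left out.

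*Cyp27a1*, the mitochondrial enzyme that opens the alternative route and oxidizes the side chain, was at 65.1, 90.7 and 96.5 FPKM in the controls and 99.4, 96.9 and 120 FPKM in the other group. These groups met without overlapping, and the difference did not pass the test (log2 fold change 0.34, 95% interval -0.08 to 0.76, limma adjusted p = 0.208). Thus the 2 enzymes named for the alternative route had values on opposite sides of 0, 1 of which passed the test.

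A pair of enzymes that modify the ring and shorten the side chain rose by small amounts. *Hsd3b7*, the microsomal dehydrogenase that both routes share (chromosome 7, 127800604 to 127803802, plus strand), was at 126, 160 and 142 FPKM in the controls and 199, 196 and 193 FPKM in the livers labelled med23Δli (log2 fold change 0.47, SE 0.13, limma adjusted p = 0.0442). *Hsd17b4*, the peroxisomal bifunctional protein of side chain shortening, was at 83.9, 88.4 and 72.8 FPKM against 115, 115 and 107 FPKM (log2 fold change 0.46, SE 0.13, limma adjusted p = 0.0413). In both genes the groups were apart, yet both calls sat at the edge of the threshold. *Hsd3b7* lost its call without any of control replicates 1 and 3 and the 3 livers labelled med23Δli (adjusted p 0.0965, 0.0550, 0.148, 0.135 and 0.107), and *Hsd17b4* without the same livers (0.0671, 0.0620, 0.147, 0.143 and 0.0881). With each library centred on its median the adjusted p was 0.0602 for *Hsd3b7* and 0.0520 for *Hsd17b4*, and with the replicate number as a block it was 0.0831 and 0.0742. Exons of *9430064I24Rik*, on the other strand, and of *Gm49388*, on the same strand, overlap *Hsd3b7*. Reads of the shared stretches cannot be told apart, for *9430064I24Rik* because the library kit does not mark strand.

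Besides *Cyp27a1*, 5 tested enzymes of synthesis were not called, with log2 fold changes from -0.44 to 1.91. *Akr1d1*, the steroid reductase of the ring, came nearest: 0.914, 1.45 and 0.217 FPKM in the controls and 3.28, 1.63 and 4.46 FPKM in the livers labelled med23Δli gave 1.91 with a wide SE of 0.59 (limma adjusted p = 0.0545), and the adjusted p was 0.0375 without control replicate 2. *Akr1d1* also passed the threshold with a pseudocount of 1. Over the 15 alternatives its log2 fold change ran from 1.14 to 2.40. The racemase *Amacr* was at 0.54 (adjusted p 0.139, and 0.0392 without control replicate 1), and the peroxisomal oxidase *Acox2* at -0.44 (adjusted p 0.176, and 0.0217 without control replicate 3). With 1 liver left out *Amacr* ran from 0.28 to 0.78 and *Acox2* from -0.67 to -0.23, with adjusted p of up to 0.301 and 0.396. The oxysterol hydroxylase *Cyp39a1* stood at 0.03 and *Scp2*, the sterol carrier protein and thiolase, at 0.04. *Scp2* was by level the most abundant member, with means of 731 and 730 FPKM. The summed FPKM of the 11 genes of synthesis was 1029 to 1445 in the controls and 1235 to 1284 in the livers labelled med23Δli, and was mostly *Scp2*.

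No gene of conjugation was called. *Slc27a5*, the liver ligase that activates bile acids with coenzyme A, was at 147, 223 and 147 FPKM in the controls and 109, 122 and 124 FPKM in the livers labelled med23Δli. All 3 livers of the second group were lower, but the difference missed the threshold (log2 fold change -0.52, 95% interval -0.95 to -0.09, limma adjusted p = 0.0830) and passed it under quantile normalization (adjusted p 0.0390). *Baat*, which joins the activated bile acid to taurine or glycine, was at 26.6, 27.7 and 7.55 FPKM against 24.2, 25.0 and 30.7 FPKM. Here 5 livers were alike and control replicate 3 was low, and the log2 fold change of 0.58 (SE 0.45, limma adjusted p = 0.385) became -0.04 without that liver. *Slc27a2*, an acyl-CoA synthetase that also activates bile acid precursors, stood at 0.36 (adjusted p 0.188).

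Of the 6 transporters listed for sinusoidal uptake 3 rose, each with a log2 fold change over 1. *Slco1b2*, the organic anion transporter OATP1B2 of the hepatocyte (chromosome 6, 141629518 to 141686646, plus strand), had the largest log2 fold change of all 34 tested members. It was at 8.33, 14.4 and 13.0 FPKM in the controls and 94.1, 93.6 and 123 FPKM in the livers labelled med23Δli. There was a wide gap between the groups, since the lowest liver of the second stood far above the highest control. The means, 11.9 ± 3.17 and 104 ± 17.1 FPKM (SD, n = 3 each), differed 8.71-fold (log2 fold change 3.14, SE 0.22, limma adjusted p = 6.19e-04), and with any 1 liver left out the log2 fold change was 2.90 to 3.29.

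*Slco1a1*, the related carrier OATP1A1 (chromosome 6, 141907282 to 141946962, minus strand), was at 16.3, 15.9 and 10.3 FPKM in the controls and 43.7, 40.1 and 40.4 FPKM in the livers labelled med23Δli. The second group was tight and above every control, with means of 14.2 ± 3.35 and 41.4 ± 2.03 FPKM (SD, n = 3 each; log2 fold change 1.57, SE 0.19, limma adjusted p = 0.00318). The neighbouring *Slco1a4* is close to it in sequence, so that reads of the pair may have been split between them. Its own level was 0.724 to 3.33 FPKM over the 6 livers.

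*Slc10a1*, the sodium-dependent bile acid importer NTCP (chromosome 12, 80953183 to 80968705, minus strand), was at 26.5, 39.4 and 18.7 FPKM in the controls. It was at 55.5, 55.2 and 56.8 FPKM in the livers labelled med23Δli, which were nearly equal to each other and above all controls. The log2 fold change was 1.05 (SE 0.25, limma adjusted p = 0.0235). The adjusted p was 0.0605 without control replicate 1 and 0.0763, 0.0730 and 0.0785 without med23Δli replicate 1, 2 or 3, with log2 fold changes of 1.04 to 1.06 in these fits. Over all fits with 1 liver left out the log2 fold change ran from 0.79 to 1.32, and the group means differed 1.98-fold.

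The 3 remaining carriers were not called. *Slco1a4* (OATP1A4) had a log2 fold change of -0.08 with a 95% interval of -1.33 to 1.17, and turned to 0.45 without control replicate 2 and to 0.32 without med23Δli replicate 2. *Slco2b1* (OATP2B1) was at -0.12, and at 0.03 without control replicate 1. *Slc10a2*, the sodium-dependent carrier best known from the ileum and from bile ducts, was at 0.23 (adjusted p 0.535). In these livers the make-up of the class thus differed as well as its total. The 6 genes summed to 72.1 to 100 FPKM in the controls and to 220 to 253 FPKM in the livers labelled med23Δli, and *Slco1b2* held 13.9% of the sum in the former and 44.1% in the latter, moving from the fourth to the first place by level. *Slc10a1* held 31.7% and 23.9%.

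**Figure D3:**
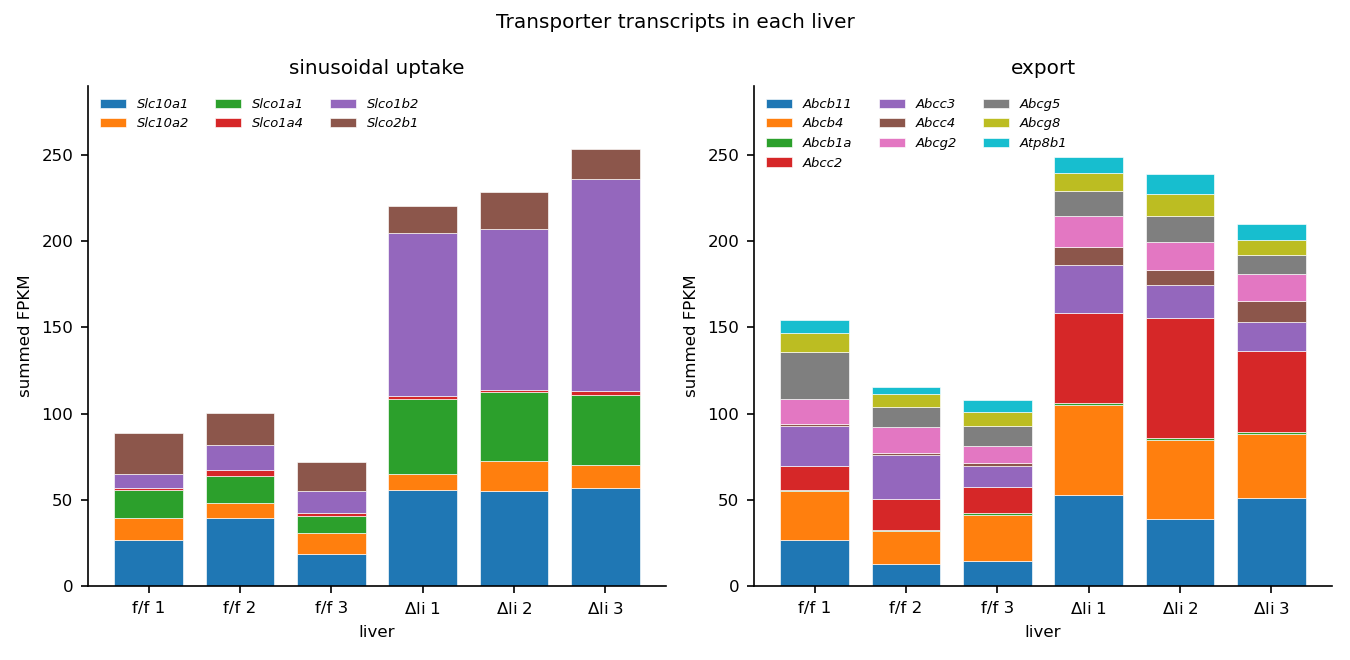
Summed FPKM of the genes of sinusoidal uptake (left) and of export (right) in each of the 6 livers, f/f for med23f/f and Δli for livers labelled med23Δli, with 1 colour per gene; *Slc51a* and *Slc51b*, at or near 0, are left out. The bars for uptake reach 72.1 to 100 FPKM in the controls and 220 to 253 FPKM in the other livers, where the *Slco1b2* segment is the largest.

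The start sites of these transporters are shown because 3 importers and 2 exporters that rose carry the letters AGGTCA, the core element that many nuclear receptors bind, near their RefSeq starts. The stretches are the 150 bases before the start (GRCm38.p6, the assembly of mm10), written 5′ to 3′ on the gene's strand, with AGGTCA or its reverse complement TGACCT in capitals. *Slco1b2* lies at chr6:141629368-141629517 (plus strand, element starting 81 bases before the start), *Slco1a1* at chr6:141946963-141947112 (minus strand, 134 and 24 bases before), *Slc10a1* at chr12:80968080-80968229 (minus strand, 87 bases before 1 of its 2 annotated starts) and *Abcb11* at chr2:69342617-69342766 (minus strand, 56 bases before).
Slco1b2: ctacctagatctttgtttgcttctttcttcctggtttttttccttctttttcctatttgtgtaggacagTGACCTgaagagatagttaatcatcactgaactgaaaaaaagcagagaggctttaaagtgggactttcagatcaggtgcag
Slco1a1: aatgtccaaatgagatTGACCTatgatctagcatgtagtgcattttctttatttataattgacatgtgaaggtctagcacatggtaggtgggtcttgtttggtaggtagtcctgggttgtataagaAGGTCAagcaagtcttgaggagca
Slc10a1: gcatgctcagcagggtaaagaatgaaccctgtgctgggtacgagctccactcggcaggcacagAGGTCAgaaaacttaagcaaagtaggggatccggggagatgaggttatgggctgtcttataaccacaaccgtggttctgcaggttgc
Abcb11: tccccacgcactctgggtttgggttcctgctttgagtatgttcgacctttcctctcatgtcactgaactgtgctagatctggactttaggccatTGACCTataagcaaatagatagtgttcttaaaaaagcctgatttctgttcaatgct
For *Abcc2*, whose start differs between annotations, the 30 bases around the element are given (chr19:43782247-43782276, plus strand, 49 bases before the RefSeq start and inside an annotated *Abcc2* exon of GENCODE).
Abcc2: tgtcaggatgaaAGGTCAggagacttgcct

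RefSeq windows from 250 bases before to 50 after a start were at hand for 29 of the 38 members. The letters AGGTCA, searched on both strands, were in 13 of these 29 genes, or 36.8% of their 38 windows, and in 16.3% of all 32851 mouse windows and 13.3% of the windows of tested genes. They were in 5 of the 9 risen members with a window and in 6 of the 16 tested members that were not called. *Cyp8b1*, *Hsd3b7*, *Abcb4* and *Abcc4* rose and held no copy. The longer letters TCAAGGTCA of the LRH-1 kind and a perfect repeat of AGGTCA with 1 base between, direct (DR1) or inverted (IR1), each of which holds the shorter letters, were in none of the members' windows and in 0.423%, 0.0396% and 0.00913% of all windows. A match is a description of letters, and no binding was measured.

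Of the 10 tested exporters 4 rose. *Abcc4*, the basolateral pump MRP4 that carries bile acids back to blood (chromosome 14, 118482692 to 118706219, minus strand), was at 1.08, 0.958 and 1.74 FPKM in the controls and 10.2, 8.45 and 11.8 FPKM in the livers labelled med23Δli. All livers of the second group were several times above every control. The means of 1.26 ± 0.421 and 10.1 ± 1.68 FPKM (SD, n = 3 each) differed 8.05-fold (log2 fold change 2.94, SE 0.24, limma adjusted p = 9.18e-04).

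*Abcc2*, the canalicular pump MRP2 for conjugated organic anions such as bilirubin glucuronide (chromosome 19, 43782192 to 43840740, plus strand), was at 14.0, 18.2 and 14.8 FPKM against 52.0, 69.7 and 47.1 FPKM. The groups were again far apart, with med23Δli replicate 2 the highest liver, and the log2 fold change was 1.83 (SE 0.18, limma adjusted p = 0.00173). *Abcb11*, the canalicular bile salt export pump (chromosome 2, 69238282 to 69342616, minus strand), was at 26.5, 13.1 and 14.8 FPKM in the controls and 53.0, 39.0 and 50.8 FPKM in the livers labelled med23Δli (log2 fold change 1.45, SE 0.27, limma adjusted p = 0.0111). Its control replicate 1 was the highest of the controls and still under the lowest liver of the other group. Both calls were kept with each liver left out, the highest adjusted p being 0.0102 for *Abcc2* and 0.0491 for *Abcb11*. Exons of *Gm13613* and *Gm13614*, on the other strand, overlap *Abcb11*.

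*Abcb4*, the floppase that puts phosphatidylcholine into bile (chromosome 5, 8893717 to 8959231, plus strand), was at 28.5, 18.8 and 26.6 FPKM in the controls and 51.8, 45.8 and 37.5 FPKM in the livers labelled med23Δli. The groups were apart, with the lowest liver of the second not far over the highest control. The log2 fold change was 0.88 (SE 0.20, limma adjusted p = 0.0205), and the adjusted p became 0.0847 without med23Δli replicate 1 and 0.0730 without med23Δli replicate 2.

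**Figure D4:**
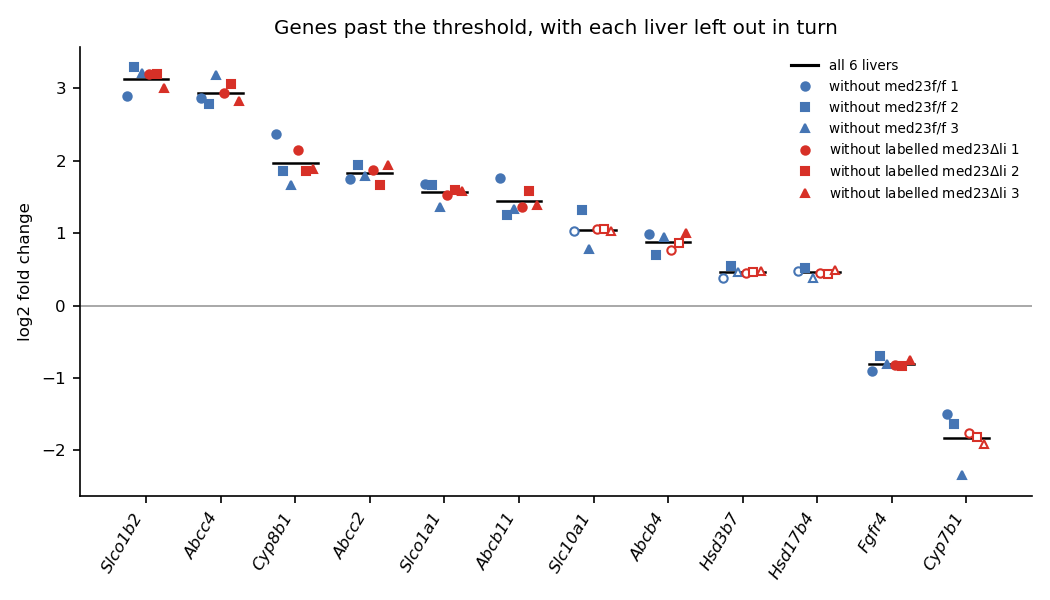
log2 fold change of the 12 called genes with all 6 livers (black line) and with each liver left out in turn (blue symbols for a med23f/f liver, red for a liver labelled med23Δli); open symbols have an adjusted p of 0.05 or more. Each gene keeps its sign, and open symbols appear for *Slc10a1*, *Abcb4*, *Hsd3b7*, *Hsd17b4* and *Cyp7b1*.

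The 6 remaining exporters were not called, with log2 fold changes from -0.17 to 0.77. *Atp8b1*, the phospholipid flippase of the canalicular membrane, was at 7.13, 3.77 and 7.09 FPKM in the controls and 8.97, 11.7 and 9.21 FPKM in the livers labelled med23Δli. These did not overlap, and the difference missed the threshold (0.77, 95% interval 0.18 to 1.36, limma adjusted p = 0.0668) but passed it without control replicate 3 (0.0446). With 1 liver left out the log2 fold change of *Atp8b1* ran from 0.47 to 0.92, and its adjusted p reached 0.196 without med23Δli replicate 2. *Abcg2* (BCRP), a canalicular pump of many drugs and conjugates, was at 0.36 with groups apart (adjusted p 0.198), and the drug pump *Abcb1a* at 0.43 (adjusted p 0.252). The sterol exporter subunits *Abcg5* and *Abcg8*, which work as a dimer, had values of -0.17 and 0.24, and *Abcg5* turned to 0.24 without control replicate 1. Their annotated exons overlap on opposite strands. *Abcc3*, the basolateral pump MRP3, was at 0.09 with a 95% interval of -0.59 to 0.78, and it turned to -0.22 without control replicate 3 and to -0.13 without med23Δli replicate 1. *Slc51a*, a subunit of the basolateral organic solute transporter, was listed at 0 in all 6 livers, and its partner *Slc51b* was at 0.205 FPKM in control replicate 1 and listed at 0 in the other 5.

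The 12 exporters summed to 108 to 154 FPKM in the controls and to 210 to 249 FPKM in the livers labelled med23Δli. By level *Abcc2* moved from the fifth to the first place, from 12.8% to 24.2% of the sum, and *Abcb11* went from 14.1% to 20.6%. *Abcb4* held 19.8% and 19.3%. The ratio of *Abcb11* to *Slc10a1* within a liver, export over uptake, was 1.00, 0.331 and 0.789 in the controls and 0.955, 0.706 and 0.895 in the livers labelled med23Δli, so that the groups overlapped in this ratio although both genes rose.

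Among the regulators only *Fgfr4* passed the test, and it fell. *Fgfr4*, the hepatocyte receptor for intestinal FGF15 (chromosome 13, 55152640 to 55168759, plus strand), was at 32.1, 42.3 and 36.2 FPKM in the controls and 21.5, 21.7 and 19.6 FPKM in the livers labelled med23Δli. The second group was narrow and below all controls. The means were 36.9 ± 5.13 and 20.9 ± 1.17 FPKM (SD, n = 3 each), with a log2 fold change of -0.80 (SE 0.14, limma adjusted p = 0.00997) that stayed between -0.90 and -0.70 with each liver left out. Its coreceptor *Klb*, at 2.04 to 4.49 FPKM over the 6 livers, had a log2 fold change of -0.08 (95% interval -0.71 to 0.54), or 0.24 without med23Δli replicate 3.

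*Nr1h4* (FXR), the bile acid receptor, was at 27.1, 20.8 and 18.3 FPKM in the controls and 24.9, 22.8 and 23.2 FPKM in the livers labelled med23Δli. The control values spanned those of the other group, and the difference of 0.12 had a 95% interval of -0.26 to 0.50 (limma adjusted p = 0.634) and was -0.01 without control replicate 3. *Nr0b2*, the FXR target SHP that represses the genes of synthesis, was at 15.7, 7.57 and 11.7 FPKM against 18.2, 17.7 and 22.0 FPKM. Its groups were apart, but the log2 fold change of 0.78 (95% interval 0.20 to 1.36) had a limma adjusted p of 0.0607, and of 0.0292 without control replicate 1. With 1 liver left out the log2 fold change of *Nr0b2* ran from 0.50 to 1.02, and its adjusted p reached 0.176 without med23Δli replicate 3. *Nr5a2* (LRH-1), an activator of the genes of synthesis, was at 0.35 (adjusted p 0.314, and 0.0400 without control replicate 1). It ran from 0.17 to 0.62 with 1 liver left out, and its adjusted p reached 0.635 without control replicate 2. *Gpbar1*, the membrane receptor TGR5, which in liver is known from cells other than hepatocytes, reached at most 0.157 FPKM and was not tested.

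The rest of the pathway, 56 further genes of bile acid metabolism in the table, also moved in both directions: of 51 tested, 9 rose and 5 fell (17.6% and 9.80%, beside the 11.6% and 9.48% of all tested genes), with a median log2 fold change of 0.16. The number that rose was 5 without any 1 of the 3 livers labelled med23Δli, and the number that fell was 9 without control replicate 3 and 2 without med23Δli replicate 1 or 2. Of the enzymes, the peroxisomal thioesterase *Acot8* (log2 fold change 0.72), the thiolase *Acaa1a* (0.72) and the bile acid sulfotransferase *Sult2a8* (1.99) rose. *Acot8* lost its call without med23Δli replicate 1 (adjusted p 0.0670). *Sult2a8* lost it without med23Δli replicate 1, 2 or 3 (0.111, 0.0809 and 0.107), and its log2 fold change was 1.26 without control replicate 3. *Acaa1a* lost it in 10 of the 15 alternatives, among them median centring (0.0516), quantile normalization (0.0539), the replicate block (0.0598), control replicate 1 or 3 left out (0.0966 and 0.0652) and med23Δli replicate 1, 2 or 3 left out (0.127, 0.101 and 0.0936). *Cyp2c70*, which makes the muricholic acids of mice, fell by 1.13 on the log2 scale, from 227 ± 35.7 to 106 ± 37.8 FPKM (SD, n = 3 each; limma adjusted p = 0.0185), a call that was lost without control replicate 1 (0.0522) and without med23Δli replicate 1 or 2 (0.0701 and 0.0710). *Fdxr*, the reductase that feeds electrons to mitochondrial cytochromes P450 such as *Cyp27a1*, fell by 1.35 and kept its call in all 15 alternatives. The acyltransferase *Acnat2* fell by 0.61, and its adjusted p was 0.0547 with the replicate block and 0.0761 and 0.0838 without med23Δli replicate 1 or 2. *Acaa1a* and *Acnat2* have near-identical neighbours with which reads may have been shared.

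Of the other transport genes, the drug pump *Abcb1b* rose by 2.18 on the log2 scale and the copper pump *Atp7b* fell by 0.86. *Atp7b* lost its call without control replicate 1 or 2 (adjusted p 0.0571 and 0.0513) and without med23Δli replicate 1, 2 or 3 (0.0751, 0.0735 and 0.0691). *Abcb1b*, with 0.968 ± 0.415 and 4.56 ± 1.13 FPKM (SD, n = 3 each), is a close paralog of the member *Abcb1a*, which was not called. *Slco1a5*, *Slco1a6* and *Npc1l1* were under the limit on low values.

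Of 16 further regulators tested, 3 rose. *Nr1i3* (CAR), a xenobiotic sensor that is known to drive transporter and drug metabolism genes, rose from 5.74 ± 1.87 to 31.2 ± 2.49 FPKM (SD, n = 3 each; log2 fold change 2.46, limma adjusted p = 0.00130). *Nr1i2* (PXR), the related sensor, rose from 11.4 ± 1.00 to 19.5 ± 0.503 FPKM (0.77, adjusted p 0.00778), and *Mafg*, a small partner of basic leucine zipper factors, rose by 0.84 on the log2 scale. *Nr1i3* and *Nr1i2* kept their calls in all 15 alternatives, whereas *Mafg* lost its call in 9, among them quantile normalization (adjusted p 0.0550), the replicate block (0.0615), control replicate 1 or 2 left out (0.102 and 0.0839) and med23Δli replicate 1, 2 or 3 left out (0.108, 0.120 and 0.104). *Rxra*, the common partner of these receptors, was at -0.17 (adjusted p 0.394), *Nr1h3* (LXRα) at -0.40 (0.202, and 0.0162 without control replicate 3) and *Hnf4a* at -0.55 (0.126, and 0.0230 without the same liver). *Hnf4a* also passed the threshold under quantile normalization with all 6 livers. With 1 liver left out *Nr1h3* ran from -0.64 to -0.22 and *Hnf4a* from -0.78 to -0.29. *Vdr* was under the limit on low values and *Fgf15*, the intestinal hormone, was listed at 0 in every liver.

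Hepatocytes differ along the line from portal to central vein in their bile acid genes, and CCl4 injures the central ones, so markers of both zones were read beside these results. Of 9 tested pericentral markers 3 were higher in the livers labelled med23Δli (*Axin2*, *Cyp2e1* and *Cyp1a2*) and none was lower. Their summed level, in which *Cyp2e1* was the most abundant, was 463 to 597 FPKM in the controls and 912 to 1075 FPKM in the other group. *Rhbg* and *Slc1a2* were not called and had log2 fold changes of -0.73 and -0.46. Of 10 periportal markers 4 were lower (*Hal*, *Sds* and *Cdh1* among them) and none was higher, with sums, mostly *Alb*, which the hepatocyte list also holds, of 18570 to 25055 and 14281 to 19281 FPKM. *Pck1*, *Ass1* and *Gls2* were not called and had log2 fold changes of 0.63, 0.20 and 0.15, so neither list had 1 direction throughout, and their part in the differences of the bile acid genes was not tested. Endothelial markers, all 6 lower, summed to 81.4 to 119 FPKM in the controls and 43.7 to 46.9 FPKM in the other group.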

How the data were processed

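Whole-liver RNA of 6 mice was sequenced by the authors as paired reads from a library kit that does not mark strand. Per the labels and the methods, adapters were trimmed, reads were aligned to UCSC mm10 with TopHat and FPKM came from Cuffdiff; versions, annotation and options are not given in the sources used here. The deposited table has 24346 genes with FPKM in each of the 6 libraries. Group means, fold changes, p-values and q-values from the authors' own comparison stand beside them and were not used, and 0 columns of values per library were left unmapped. FPKM is divided by length and library size and keeps no counts, so the precision rests on the 3 livers of a group.

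Genes whose mean over all 6 libraries reached 0.5 FPKM (11956) were compared as log2(FPKM + 0.1) with limma 3.58.1 in R 4.3.3 (lmFit, eBayes with a mean-variance trend) and Benjamini-Hochberg adjustment over all genes tested. This log scale understates changes of low genes. No tested member passed this limit through 1 group only. Exact two-sided permutation tests of 3 against 3 livers can reach 0.1 at the lowest. The fit was tested on simulated data, where it missed a first limit on the share of changed genes recovered and passed a looser one set afterwards. Class medians, shares, ratios and motifs have no test. Values in each liver are given for each called member and for *Cyp7a1*, *Cyp8b1*, *Cyp27a1*, *Cyp7b1*, *Baat*, *Slc10a1*, *Abcb11*, *Nr1h4* and *Nr0b2*, and for some others near the threshold chosen after their values were seen (*Akr1d1*, *Slc27a5*, *Atp8b1*); of the further genes, those called and 5 nuclear receptors are named, except that some genes are not reported here. The members and lists were chosen with earlier results of these data known. Of 57 further genes listed, 1 (*Stard1*) had no matching symbol, nor had the marker *Ly6g*. Gene positions are from GENCODE M21 and promoter windows from RefSeq, GRCm38.p6. Alternatives were other pseudocounts (1, 0.01), no filter or one at 1 FPKM, median centring, quantile normalization, eBayes without trend or robust, a replicate block, an adjusted p under 0.01 and leaving out each liver. Python 3.11.15 with pandas 2.3.3 and matplotlib 3.10.9 served for sequences and figures.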

Additional observations from a re-analysis of the deposited data

How the results depend on the processing

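Over the 15 alternatives to the main setting, 509 fits of single members gave the direction and side of the threshold reported in 458, a lost call in 28, a new call in 8 and a changed sign in 15; *Cyp8b1*, *Slco1a1*, *Slco1b2*, *Abcb11*, *Abcc2*, *Abcc4* and *Fgfr4* kept their calls in each. At an adjusted p under 0.01, 4 members rose and 1 fell. With 1 liver left out, 6 to 11 members rose and 1 to 3 fell, 6 to 8 rose and 0 to 1 fell by more than 2-fold, and of the further genes 5 to 10 rose and 2 to 9 fell. The class median ran from -0.035 to 0.47 for conjugation, from 0.53 to 0.89 for uptake and from -0.0065 to 0.27 for regulators in these fits, and *Med23* from -0.22 to 0.017. Changed signs were seen in members that were not called. Under quantile normalization *Cyp39a1* came to -0.0077 and *Scp2* to -0.081. With 1 liver left out, *Cyp39a1* ran from -0.12 to 0.17, *Scp2* from -0.10 to 0.26, *Baat* from -0.035 to 0.90, *Slco1a4* from -0.58 to 0.45, *Slco2b1* from -0.24 to 0.025, *Abcc3* from -0.22 to 0.29, *Abcg5* from -0.37 to 0.24, *Nr1h4* from -0.0065 to 0.27 and *Klb* from -0.31 to 0.24. The cause was not tested. Same-numbered livers of the 2 groups did not deviate together (r = -0.02, -0.05 and -0.12 across genes). Of the 6 libraries 0 correlated best with their own number. With 3 livers per group these values gave no sign of pairing by number, and they cannot exclude shared litters or days. With the replicate number as a block 8 members rose and 2 fell, and the calls of *Hsd3b7* and *Hsd17b4* were lost, as they were under median centring, quantile normalization and eBayes without trend. Groups of 3 livers and the lack of read counts behind each value limit every value here, and a miss of the threshold does not show equal levels.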

Other observations

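The members varied more among the controls than among the livers labelled med23Δli. On the log2(FPKM + 0.1) scale, the SD over 3 livers was larger in the controls for 30 of the 34 tested members (88.2%) and for 72.6% of all tested genes. The median SD of the members was 0.38 in the controls and 0.20 in the livers labelled med23Δli, beside 0.25 and 0.15 over all tested genes. Among the controls the widest were *Akr1d1* (SD 1.19), *Baat* (1.06), *Slco1a4* (1.03), *Cyp7b1* (0.90) and *Cyp8b1* (0.73), and in *Baat*, *Akr1d1*, *Cyp7b1* and *Cyp8b1* it was control replicate 3 that had the lowest level. *Klb* went the other way, with 0.11 in the controls and 0.57 in the livers labelled med23Δli. No test of this difference in spread was made.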
